A study of Neogale vison with 6 samples.

Results

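Sestrins, arginine sensors, the GATOR complexes and DDIT4 act upstream of mTORC1, the kinase complex that holds autophagy back when nutrients are plentiful. The examined set comprised 10 genes, namely SESN1, SESN2, SESN3, CASTOR1, SLC38A9, DEPDC5, NPRL2, NPRL3, WDR24 and DDIT4, taken from the count table by gene symbol. Of these, 9 were found among the 24526 genes of the table. No row carries the symbol DEPDC5, the third subunit of GATOR1, and this gene was not analysed here. All 9 genes found had enough reads to be tested, as had 12148 genes in total.

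The cells were Mv1Lu, an epithelial line from mink lung. Untreated cells (control, 3 libraries) were compared with cells subjected to cholesterol depletion (CD, 3 libraries), in which 50 μM lovastatin, a statin that blocks sterol synthesis, was combined with 50 μM mevalonate in medium containing 10% LPDS (lipoprotein-deficient serum) for 16 h. The labels describe the controls only as untreated, so the contributions of statin, mevalonate and serum cannot be told apart. In such bulk RNA, a change of RNA per cell and a change in the share of cells that express a gene cannot be told apart either. The labels do not say whether the replicates were separate cultures, so p-values measure the spread between these libraries, which may be technical.

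In the textbook view, SESN1 and SESN2 bind leucine and, when it is scarce, restrain GATOR2, a complex that contains WDR24. CASTOR1 does the same for cytosolic arginine. Released from GATOR2, GATOR1 (DEPDC5, NPRL2 and NPRL3) switches off the Rag GTPases that bring mTORC1 to the lysosome. SLC38A9 is a lysosomal transporter that reports arginine, and also cholesterol, inside the lysosome to the Rags. DDIT4, also called REDD1, is induced by stress and inhibits mTORC1 through the TSC complex. These genes therefore link amino acids, sterols and stress to the control of autophagy, and the comparison asks how their RNA differed after CD.

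The reads on genes numbered from about 13473800 to about 18633800 per library. Reads that were assigned to no gene made up 29.3% to 47.2% of the control and 31.1% to 41.4% of the CD libraries, and reads that fell ambiguously between genes made up at most 0.912%. Among sterol-responsive genes examined as a check of the treatment, HMGCS1, INSIG1 and IDI1 were higher in CD, with log2 fold changes of 3.43, 1.67 and 2.10 (edgeR, FDR of at most 8.48e-06 each). No row carries the symbol SQLE. Of 5 epithelial markers, KRT19 stood between 883 and 1011 CPM in control and between 379 and 533 CPM in CD cells, CDH1 and EPCAM were near 0 (at most 0.390 CPM on average in either group), and KRT8 and KRT18 were not found by symbol. The fibroblast markers COL1A1, COL3A1, PDGFRB and DCN together held 113 to 144 CPM in control and 38.0 to 50.7 CPM in CD cells, and the first 3 of them were called lower. The endothelial markers PECAM1 and CDH5 had no reads in the control and at most 0.307 CPM in the CD libraries. Of the leukocyte markers, PTPRC was at 0 in control and 0.0240 CPM in CD cells on average, and CD68, also a lysosomal protein, rose from 5.45 ± 0.273 to 19.7 ± 2.75 CPM (SD, n = 3 each). The part of these markers in the results below was not tested.

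The RNA of 4 of the 9 upstream genes was higher in CD (SESN1, SESN3, CASTOR1 and DDIT4) and that of 2 was lower (NPRL2 and WDR24) by edgeR's quasi-likelihood test, with an FDR (adjusted p) under 0.05 needed for a call, and 3 were not called (SESN2, SLC38A9 and NPRL3). Changes are given as log2FC, the log2 fold change of CD over control, with its standard error (SE). Among all tested genes 47.7% were called, 24.8% as higher and 22.9% as lower. For the same 6 genes the CD libraries all lay on one side of the controls, as they did for 58.0% of all tested genes (29.5% above and 28.6% below). The median log2FC of the 9 genes was 0.13, beside 0.06 for all tested genes, and their median change in size was 0.43, beside 0.47. The called share of the set was 66.7%, in both directions, with a typical size of change close to that of all tested genes. Levels are given below as CPM, the read count scaled to library size with TMM factors, which are not corrected for gene length and are compared only within a gene.

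**Figure D1:**
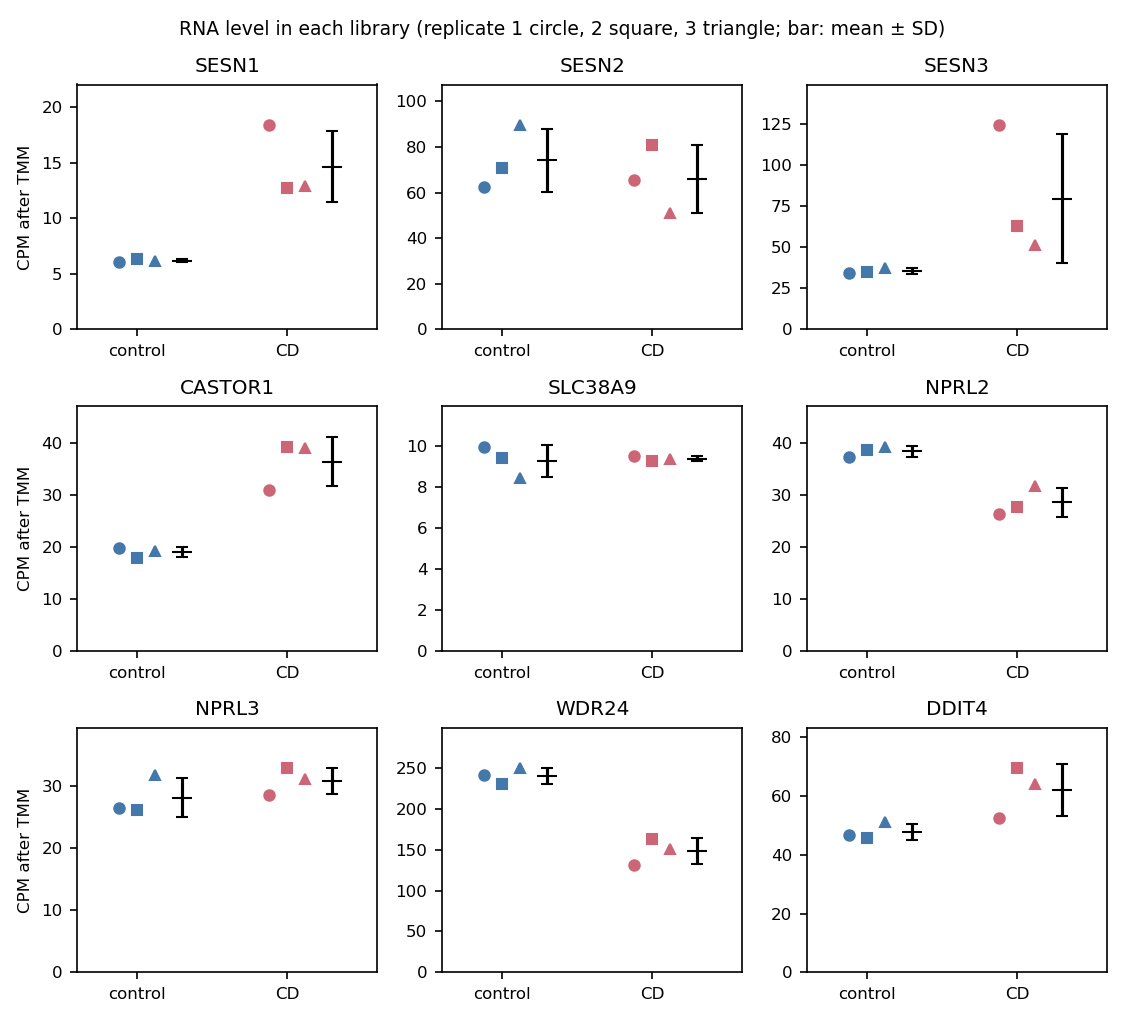
RNA level of the 9 genes in each library, in CPM after TMM scaling (vertical axes, each starting at 0), with circles, squares and triangles for replicates 1, 2 and 3 of control (blue) and CD (red) and bars for the mean ± SD. The groups are apart for SESN1, SESN3, CASTOR1, NPRL2, WDR24 and DDIT4 and overlap for SESN2, SLC38A9 and NPRL3.

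Of the sestrins, SESN1 and SESN3 rose 2.37-fold and 2.24-fold, whereas SESN2 showed no called change. SESN1 (ENSNVIG00000004555), a stress-induced leucine sensor, stood at 6.09, 6.36 and 6.12 CPM in control replicates 1, 2 and 3 and at 18.4, 12.7 and 12.9 CPM in CD replicates 1, 2 and 3. The controls were nearly equal and every CD library lay far above them, replicate 1 highest. The mean rose from 6.19 ± 0.149 to 14.7 ± 3.22 CPM (SD, n = 3 each), a log2FC of 1.24 with an SE of 0.20 (FDR 6.17e-04, edgeR). SESN1 ranked 880th from the top among the log2FC values of the 12148 genes. It had few reads, 85 to 111 in the control and 179 to 299 in the CD libraries.

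SESN3 (ENSNVIG00000005698), a known target of FOXO factors, stood at 34.4, 34.9 and 37.6 CPM in the control and at 124, 63.2 and 51.7 CPM in the CD libraries. All CD libraries were above the controls, but they differed widely among themselves, with replicate 1 far above the others. The mean rose from 35.6 ± 1.71 to 79.8 ± 39.1 CPM (SD, n = 3 each), a log2FC of 1.16 (SE 0.28, FDR 0.00650, edgeR). Without CD replicate 1 the log2FC was 0.70, still called (FDR 0.00197, edgeR).

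SESN2 (ENSNVIG00000023817), known to be induced by ATF4, stood at 62.4, 70.7 and 89.5 CPM in the control and at 65.5, 80.9 and 51.1 CPM in the CD libraries. The groups overlapped, and the spread within each was larger than the difference of their means, 74.2 ± 13.9 and 65.8 ± 14.9 CPM (SD, n = 3 each). The log2FC was -0.17 with a 95% interval of -0.59 to 0.25 (FDR 0.474, edgeR), which does not reach the rise of SESN1 or SESN3.

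Because these genes belong to one family, their ratio was also taken within each library, which needs no scaling between libraries. The log2 ratio of SESN1 to SESN2 was -3.36, -3.47 and -3.87 in control replicates 1, 2 and 3 but -1.83, -2.67 and -1.99 in CD replicates 1, 2 and 3, a 2.65-fold higher ratio after CD. The log2 ratio of SESN2 to SESN3 was 1.04 ± 0.20 in control and -0.20 ± 0.66 in CD cells (SD, n = 3 each), a 2.36-fold lower ratio. In both cases the groups did not overlap (two-sided exact permutation p = 0.1, which is the lowest value that 3 against 3 libraries allow; 0.133 after Benjamini-Hochberg adjustment over the 4 ratios tested). The log2 ratio of SESN1 to SESN3 was -2.52 ± 0.08 in control and -2.36 ± 0.38 in CD cells (SD, n = 3 each), and the groups overlapped (two-sided exact permutation p = 0.5). The ratios of SESN1 and SESN3 to SESN2 were thus apart between the groups, in a design that cannot reach a smaller p, and no difference between the changes of SESN1 and SESN3 was detectable.

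**Figure D2:**
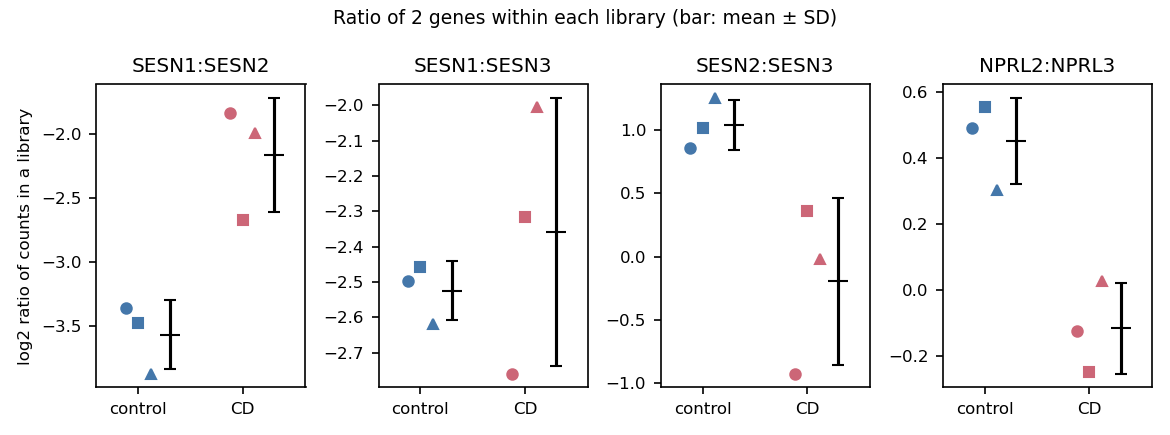
log2 ratio of the counts of 2 genes within each library (vertical axes, which differ between panels and do not start at 0) in control (blue) and CD (red) cells, with circles, squares and triangles for replicates 1, 2 and 3 and bars for the mean ± SD. The groups are apart for SESN1:SESN2, SESN2:SESN3 and NPRL2:NPRL3 and overlap for SESN1:SESN3.

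Of the arginine sensors, CASTOR1 was higher in CD and SLC38A9 was not called. CASTOR1 (ENSNVIG00000002220), the cytosolic sensor, stood at 19.8, 17.9 and 19.3 CPM in the control and at 30.9, 39.2 and 38.9 CPM in the CD libraries. Each CD library was well above each control, and CD replicate 1 was the lowest of the treated ones. The mean rose 1.91-fold, from 19.0 ± 1.03 to 36.3 ± 4.70 CPM (SD, n = 3 each; log2FC 0.94, SE 0.15, FDR 5.69e-04, edgeR). Its relative CASTOR2 stood at 17.7 ± 2.27 and 18.7 ± 4.26 CPM (SD, n = 3 each; log2FC 0.08, FDR 0.759, edgeR).

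SLC38A9 (ENSNVIG00000009590) stood at 9.96, 9.40 and 8.43 CPM in the control and at 9.53, 9.26 and 9.36 CPM in the CD libraries. The treated libraries fell inside the range of the controls. Its log2FC was 0.02, with a 95% interval of -0.35 to 0.39 (FDR 0.927, edgeR). Of the lysosomal proteins that handle or sense sterols beside it, NPC1, which exports cholesterol from the lysosome, was at 97.9, 92.8 and 109 CPM in control and 158, 150.2 and 96.6 CPM in CD cells. It was high in CD replicates 1 and 2 but not in replicate 3, and was not called (log2FC 0.43, FDR 0.0683, edgeR). Without CD replicate 3 its log2FC was 0.59 (FDR 5.11e-06, edgeR). GPR155, a lysosomal cholesterol sensor, was low, at 3.44, 3.54 and 3.42 CPM in control and 7.07, 4.36 and 3.24 CPM in CD cells, and was not called either (log2FC 0.50, FDR 0.168, edgeR). Its log2FC was 0.68 without CD replicate 3 (FDR 0.00937, edgeR) and 0.15 without CD replicate 1 (FDR 0.593, edgeR). Neither NPC1 nor GPR155 was called in the other 5 omissions of a library.

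Of the GATOR1 subunits that could be measured, NPRL2 was called lower and NPRL3 was not called. NPRL2 (ENSNVIG00000001186), which carries the GTPase-activating residue of GATOR1, stood at 37.3, 38.5 and 39.2 CPM in the control and at 26.2, 27.7 and 31.7 CPM in the CD libraries. The mean fell from 38.3 ± 0.999 to 28.5 ± 2.83 CPM (SD, n = 3 each), a log2FC of -0.43 with an SE of 0.13 (FDR 0.0211, edgeR). The groups did not overlap, but the call was lost when control replicate 1, 2 or 3 or CD replicate 1 or 2 was left out (FDR 0.0655, 0.0669, 0.0802, 0.0528 and 0.0621, edgeR), with a log2FC between -0.54 and -0.36 over all 6 omissions.

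NPRL3 (ENSNVIG00000014485), its partner in the same complex, stood at 26.5, 26.2 and 31.8 CPM in the control and at 28.6, 32.9 and 31.1 CPM in the CD libraries. The groups overlapped, with a log2FC of 0.13 and a 95% interval of -0.18 to 0.44 (FDR 0.468, edgeR). Within each library, the log2 ratio of NPRL2 to NPRL3 was 0.49, 0.55 and 0.30 in control replicates 1, 2 and 3 but -0.13, -0.25 and 0.03 in CD replicates 1, 2 and 3. It was therefore a 1.48-fold lower ratio in CD, without overlap between the groups (two-sided exact permutation p = 0.1, again the lowest possible; adjusted p = 0.133), and stayed between -0.64 and -0.50 on the log2 scale, as a difference, when any 1 library was left out.

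WDR24 (ENSNVIG00000015926), a subunit of GATOR2 and the most deeply read of the 9 genes with 2084 to 4524 reads per library, was lower in CD. It stood at 241, 229.8 and 249 CPM in the control and at 132, 163 and 150.1 CPM in the CD libraries, so that the highest treated library lay well below the lowest control. The mean fell from 240.1 ± 9.80 to 148 ± 15.7 CPM (SD, n = 3 each), a 1.62-fold lower level (log2FC -0.70, SE 0.12, FDR 7.91e-04, edgeR). Of the other GATOR2 genes, WDR59 (log2FC -0.02), SEH1L (-0.07) and SEC13 (-0.28) were not called (FDR 0.907, 0.825 and 0.0619, edgeR). SEC13, which also belongs to the COPII coat and the nuclear pore, was at 192, 199 and 207 CPM in control and 152, 161 and 181 CPM in CD cells, without overlap, and was called in 1 of the 6 omissions, that of CD replicate 3 (log2FC -0.39, FDR 0.00208, edgeR).

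DDIT4 (ENSNVIG00000010166) showed the smallest called change of the set. It stood at 46.8, 45.9 and 51.0 CPM in the control and at 52.5, 69.4 and 64.3 CPM in the CD libraries. CD replicate 1 lay just above the highest control, and the others were clearly higher. The mean rose from 47.9 ± 2.74 to 62.1 ± 8.69 CPM (SD, n = 3 each; log2FC 0.37, SE 0.14, FDR 0.0444, edgeR). The call was lost without control replicate 1, 2 or 3 or CD replicate 2 (FDR 0.147, 0.143, 0.0840 and 0.217, edgeR), and DESeq2 did not make it (log2FC 0.35, FDR 0.0779).

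**Figure D3:**
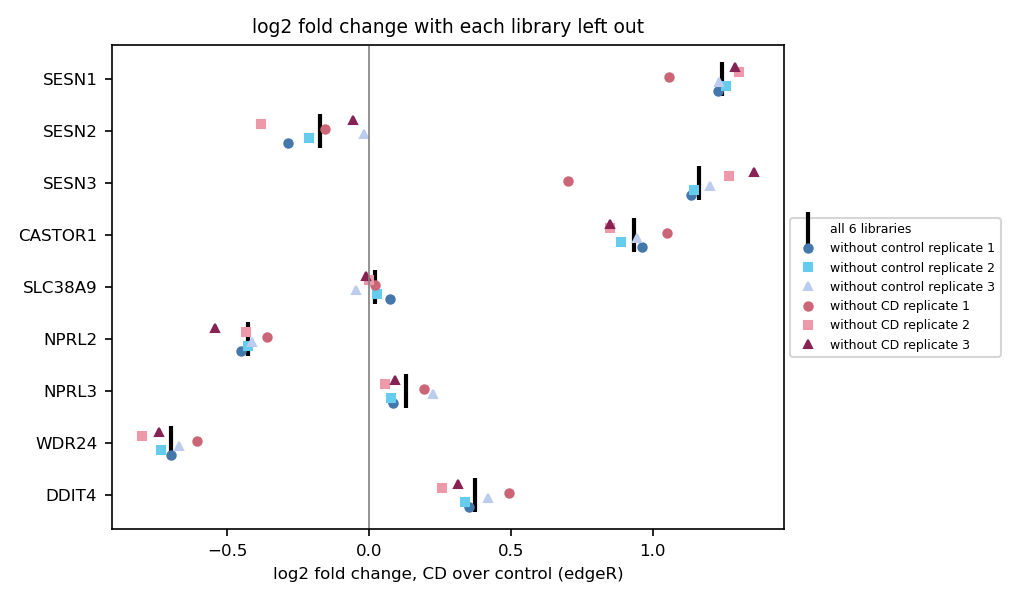
log2 fold change of CD over control (horizontal axis, edgeR) of each gene with all 6 libraries (black bar) and with 1 library left out (blue symbols for a control, red for a CD library). SESN3 moved most, from 1.16 to 0.70 without CD replicate 1, and SLC38A9 is the gene whose values lie on both sides of 0.

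The genes that act together with this set were examined as a list of 15 partners, made of the other GATOR2 subunits, the KICSTOR complex that anchors GATOR1 to lysosomes (KPTN, ITFG2 and KICS2 among them), further nutrient sensors and DDIT4L. Of these, 12 were found and tested, KICS2 under its older symbol C12orf66, while MIOS, BMT2 and DDIT4L were not found by symbol. With edgeR, 1 of them was called lower in CD, 0 were called higher and 11 were not called, a called share of 8.33% beside 47.7% of all tested genes (24.8% higher and 22.9% lower). At an unadjusted p under 0.05 (edgeR) there were 1 higher (NPC1) and 2 lower partners (SEC13 and LARS1). Among all 12148 tested genes, 6646 passed that threshold, in either direction. DESeq2 and limma-voom also called 0 partners as higher. The median log2FC of the partners was -0.06, beside 0.06 for all tested genes, and their median change in size was 0.23, beside 0.47. Without CD replicate 3, 2 partners were called higher (NPC1 and GPR155) and 2 lower (SEC13 and LARS1). Calls among all genes also rose in that omission, to 3616 higher and 3606 lower of 12330 tested genes. With all libraries they were 3016 and 2784 of 12148.

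The gene called lower was LARS1, the leucyl-tRNA synthetase, which also takes part in leucine sensing. It stood at 88.5, 85.9 and 73.9 CPM in control and at 68.7, 62.4 and 64.5 CPM in CD cells (log2FC -0.34, SE 0.12, FDR 0.0364, edgeR). The groups did not overlap, but the call was lost without control replicate 1 or 2 or CD replicate 2 (FDR 0.161, 0.116 and 0.0952, edgeR). Among these KICSTOR genes the log2FC values were -0.05 for KPTN, -0.18 for ITFG2 and 0.06 for KICS2, and none of these was called.

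**Figure D4:**
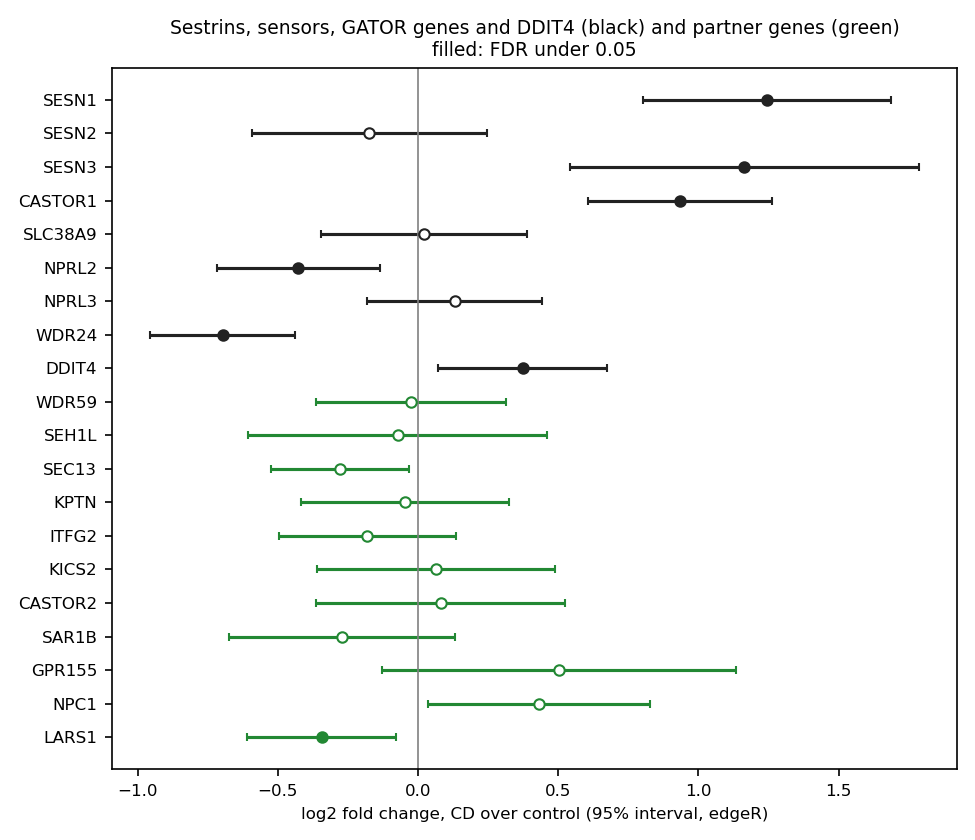
log2 fold change of CD over control with its 95% interval (horizontal axis, edgeR) for the 9 upstream genes (black) and 11 of the partner genes (green). Filled symbols are called at an FDR under 0.05, which holds for 6 of the 9 upstream genes and for LARS1 alone among the partners shown.

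Downstream of these genes, of 21 genes of the Rag, Ragulator, folliculin, TSC and mTORC1 complexes 18 were tested (LAMTOR5 and TBC1D7 were not found by symbol, and DEPTOR was too low), of which 6 were higher and 5 lower in CD (FDR under 0.05, edgeR; median log2FC 0.23), a called share of 61.1% beside 47.7% of all tested genes. The largest called increases were those of RRAGB (1.57), LAMTOR3 (0.86), RRAGC (0.72) and RRAGD (0.54) and the largest decreases those of RPTOR (-0.87), MTOR (-0.70), LAMTOR1 (-0.54) and MLST8 (-0.54), all as log2FC values. RRAGC was not called without control replicate 3 (FDR 0.0559, edgeR). RRAGD was called only without CD replicate 1 among the 6 omissions, and MTOR only without CD replicate 1 or 3, with a log2FC of -0.45 in the latter case.

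The transcription factors known to induce sestrins or DDIT4 were examined next. Of 11 such factors 8 were tested (CEBPB and FOXO3 were not found by symbol and TP63 was too low), and 5 were higher and 0 lower in CD at an FDR under 0.05 in edgeR, with a median log2FC of 0.68 and a called share of 62.5%, beside 47.7% of all tested genes (24.8% higher and 22.9% lower). FOXO4 rose by 0.91 and NFE2L2, the regulator of antioxidant genes, by 0.73 on the log2 scale (FDR 4.88e-04 and 4.10e-04, edgeR), and both were called with any 1 library left out. FOXO1, the other FOXO factor tested, was not called (log2FC 0.31, FDR 0.311, edgeR), and its groups overlapped. Its log2FC was 0.48 without CD replicate 3 (FDR 0.0285, edgeR) and 0.10 without CD replicate 1 (FDR 0.734, edgeR). NR3C1, the glucocorticoid receptor, had a log2FC of 0.88 and DDIT3, a factor of the stress response, one of 0.78 (FDR 0.0212 and 0.0248, edgeR). NR3C1 was not called without control replicate 2 or 3 (log2FC 0.86 and 0.84, FDR 0.0745 and 0.0834, edgeR), and its log2FC was 0.50 without CD replicate 1, still called. DDIT3 was not called without control replicate 1 or 2 (log2FC 0.64 and 0.80, FDR 0.106 and 0.0698, edgeR), and its log2FC was 0.45 without CD replicate 3, still called. The remaining called factor, HIF1A (log2FC 0.64, FDR 0.0424, edgeR), was called in 1 of the 6 omissions, that of CD replicate 3, and had a log2FC of 0.35 without CD replicate 1. ATF4 had a log2FC of 0.36 (FDR 0.0594, edgeR) and was not called with all libraries, but was called in 4 of the 14 alternative settings. Its log2FC was 0.47 without CD replicate 1 (FDR 0.0172, edgeR) and 0.21 without CD replicate 3 (FDR 0.111, edgeR).

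Other known targets of ATF4 were taken for comparison. Of 9 tested ATF4 targets (TRIB3, SLC7A5 and PPP1R15A were not found by symbol), 3 were higher and 4 lower (77.8% called, beside 47.7% of all tested genes), with a median log2FC of -0.41. ATF3 (3.66), VLDLR (2.36) and CEBPG (1.09) rose. The enzymes of serine synthesis PSAT1 (-2.48) and PHGDH (-1.22), the asparagine synthetase ASNS (-1.39) and CHAC1 (-1.37), which degrades glutathione, fell. The sestrin known as a target of ATF4, SESN2, was among the genes without a called change.

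**Figure D5:**
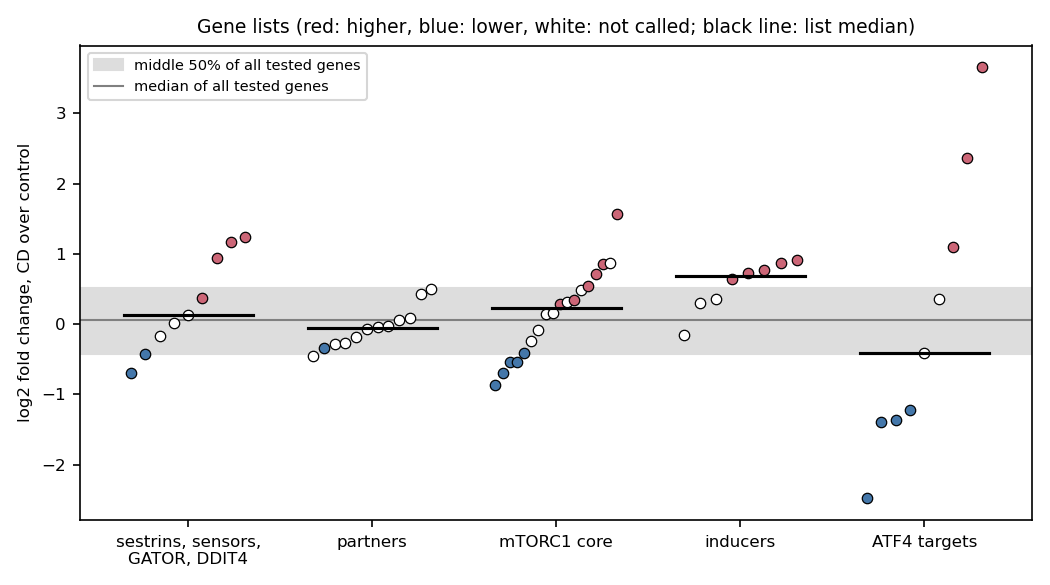
log2 fold change of CD over control (vertical axis, edgeR) for each tested gene of the examined set and of the lists of partners, complexes downstream, inducing factors and ATF4 targets, with red for genes called higher, blue for genes called lower, white for genes not called, and black lines for list medians. The grey band holds the middle 50% of all tested genes, from -0.43 to 0.52, and includes the median of each list except that of the inducing factors.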

How the data were processed

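The authors trimmed reads with fastp 0.20.1, aligned them to the mink assembly NNQGG.v01 with STAR 2.7.2a and used DESeq2 1.30.1. They deposited raw counts per gene for the 6 libraries. The counting program and its strand setting are not given in the sources used here, so counts of overlapping or antisense genes are uncertain. Rows of unassigned reads were left out. The normalized expression files were not used here. Counts were analysed in edgeR 4.0.16 (R 4.3.3) with filterByExpr (minimum count 10, minimum total 15), TMM scaling, robust glmQLFit and glmQLFTest with condition as the only term, and Benjamini-Hochberg adjustment over all 12148 genes tested, called at 0.05. The log2 fold changes had a median standard error of 0.18. Ratios between genes were compared by exact permutation. The alternatives were DESeq2 1.42.0, limma-voom (limma 3.58.1), other scalings and filters, a replicate block, each library left out (14 settings for a single gene) and an FDR of 0.01. Scripts were tested on simulated data. Genes and lists were chosen with earlier results of these data known. All 9 genes found are named, up to 4 called genes per direction of each further list with the largest changes, every cell type marker, GPR155 and NPC1, and the 3 genes most like each sestrin. Further partners and factors were named after their values were seen. The gene table at hand is of another assembly (ASM_NN_V1), so no coordinates, lengths or sequences are given. Some items of the fixed lists are not reported here.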

Additional observations from a re-analysis of the deposited data

How the results depend on the processing

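SESN1, SESN3, CASTOR1 and WDR24 kept their direction and their call in all 14 alternative settings, with log2 fold changes of 1.06 to 1.31, 0.70 to 1.36, 0.85 to 1.05 and -0.80 to -0.61 over the 6 omissions of a library. NPRL2 was called in 8 and DDIT4 in 5 of the 14 settings, and SESN2, SLC38A9 and NPRL3 in none. The uncalled log2 fold change of SLC38A9 changed sign with DESeq2 (-0.0037) and ranged from -0.047 to 0.072 with 1 library left out. The number of upstream genes called lower was 1 with the replicate block, with an FDR of 0.01 and in 5 of the 6 omissions (range 1 to 2). The number of partners called lower was 0 with upper quartile scaling, with the replicate block and with an FDR of 0.01, and 0 to 2 with 1 library left out, where 0 to 2 were called higher and the partners' median log2 fold change was -0.15 to -0.037. Over the same 6 omissions, 2216 to 3616 of all tested genes were called higher and 2194 to 3606 lower. At an FDR of 0.01, 2006 genes were higher and 2036 lower in place of 3016 and 2784. The change of the log2 ratio of SESN1 to SESN3, 0.16, ranged from -0.013 to 0.36 with 1 library left out. The causes were not tested. No pairing of the libraries by replicate number was visible (correlations of the same-numbered deviations from the group means -0.02, -0.33 and -0.18). Those of unlike-numbered libraries lay between -0.02 and 0.26. So few libraries cannot show that there was no pairing. With the replicate number as a block, 2772 genes were higher and 2636 lower, and among the 9 upstream genes NPRL2 (FDR 0.0594, edgeR) and DDIT4 (FDR 0.0846, edgeR) were no longer called, leaving 3 higher and 1 lower. Depth limits SESN1 (85 to 299 reads per library) and SLC38A9 (130 to 155) most among the 9 genes.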

Other observations

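The CD libraries differed among themselves more than the controls did (biological coefficient of variation 0.213 against 0.0852), and among the 6 called upstream genes CD replicate 1 was always at one end of the treated libraries. It had the highest level of SESN1 and SESN3 and the lowest of CASTOR1, DDIT4, NPRL2 and WDR24. On the second principal component of log2 CPM, which held 12.3% of the variance, CD replicates 1, 2 and 3 stood at -30.8, -7.58 and 37.2, and the controls between -3.29 and 4.08. MTOR followed the order of SESN3, with 141, 120 and 59.1 CPM in CD replicates 1, 2 and 3, and was between 164 and 185 CPM in the controls.

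The genes whose log2 CPM over the 6 libraries was most like that of SESN1 were KLF12, CAB39 and UBXN2A (Pearson r of 0.997, 0.997 and 0.996, with 38 genes above 0.99). For SESN3 they were NEK7, HIVEP2 and ABCA5 (r of 0.996, 0.994 and 0.993). These values follow the difference between the groups, which the genes share, and serve as a description only. For SESN2, which did not separate the groups, the most like genes were DECR2, TOP3B and CXCR6 (r of 0.986, 0.969 and 0.951 over the 6 libraries), whose log2 fold changes were -0.05, -0.08 and -0.20. For SESN2, 0 genes were above 0.99. These r values too are the highest among all tested genes with a symbol, over only 6 libraries, and serve as a description only.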
